A study of Drosophila melanogaster with 18 samples.

Results

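The genes described here are the 88 nuclear protein-coding genes of the fly genome build dm6 whose symbol starts with ND-, UQCR-, COX, ATPsyn or Sdh, out of 14206 genes in the RefSeq table (13946 protein-coding and 260 microRNA genes). The rule used names alone, and 3 COX genes of the mitochondrial genome were left out. Of the 88, 34 carry the name of a complex I subunit, 4 of complex II, 6 of complex III, 8 of complex IV and 11 of complex V, and these 63 are called subunit genes below. A further 24 have symbols ending in L, L1 or L2 and are named as paralogs of such subunits. They are called L paralogs, 6 after complex I, 3 after complex II, 3 after complex III, 8 after complex IV and 4 after complex V. The last member, Sdhaf3, is an assembly factor of complex II.

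The libraries came from a Targeted DamID study, in which a protein fused to the bacterial adenine methyltransferase Dam marks the GATC sites it comes near, and the marked fragments are cut out and sequenced. The tissue was the eye-antennal disc of early third-instar larvae. Dam-Sd discs carried UAS-Dam-Sd, a fusion to Scalloped, the TEAD-family DNA-binding factor of the Hippo pathway. Yki-Dam discs carried UAS-Yki-Dam, a fusion to Yorkie, the growth-promoting coactivator that this pathway holds back. Dam-Jra discs carried UAS-Dam-Jra, a fusion to Jra, the fly Jun and a part of the AP-1 factor that JNK signalling acts on. The 3 control groups, Dam Set 1, Dam Set 2 and Dam Set 3, carried UAS-Dam alone, which marks DNA that the enzyme can reach. All 6 groups had 3 replicates and shared the driver Eyeless-Gal4, the temperature-sensitive repressor Gal80ts and 1 schedule (eggs at 25 °C, 4 days at 18 °C and 24 hours at 29 °C). Eyeless-Gal4 drove the fusion or Dam alone in these discs. The labels do not say whether replicates came from separate crosses or animals, so the p-values may measure technical spread only.

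The respiratory chain passes electrons from NADH (complex I) and succinate (complex II) through complex III to oxygen at complex IV. The proton gradient built on the way drives ATP synthesis by complex V. Nearly all subunits are encoded in the nucleus by genes that are used in most tissues, and the fly genome also holds diverged copies of many of them, a number of which are known for expression in the testis.

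Counts at GATC ends were summed over each gene span and, separately, over the span with 1 kb on each side, called the window. Respiratory chain genes are short, with a median span of 1097 bp against 2114 bp over all genes, and a median of 10 ends in the span and 24 in the window, against 18 and 32. Another gene overlapped 48 of the 88 spans and lay in 79 of the 88 windows, so a difference in a window can belong to a neighbour. Of the 88 genes, 86 spans passed the filter on low counts (ATPsynGL has no GATC end in its span and ND-B14.5AL had too few reads), and all 88 windows passed. Libraries held 27.6 to 36.9 M counted reads for Dam-Sd, 30.6 to 40.97 M for Yki-Dam, 34.0 to 36.8 M for Dam-Jra, 26.2 to 35.7 M for Dam Set 1, 21.4 to 27.0 M for Dam Set 2 and 29.7 to 39.8 M for Dam Set 3 (M, reads divided by 1e6). The 88 windows took 0.298% ± 0.0237 of the reads with Dam-Sd, 0.317% ± 0.033 with Yki-Dam and 0.330% ± 0.0055 with Dam-Jra (mean ± SD, n = 3 each). They took 0.431% ± 0.0137 in Dam Set 1, 0.437% ± 0.0251 in Dam Set 2 and 0.434% ± 0.0027 in Dam Set 3, and no fusion library reached the lowest Dam library. Libraries were scaled by the trimmed mean of M values (TMM), with factors for windows of 0.56 to 0.96 in the fusion libraries and 1.11 to 1.62 in the Dam libraries. With library size alone in its place, the median log2 fold change of all windows was −1.24 for Dam-Sd, −0.94 for Yki-Dam and −1.03 for Dam-Jra, against −0.17, −0.13 and −0.10 with TMM, so every direction below is relative to that scaling.

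Below, a level is in CPM, TMM-scaled reads per 1e6 reads counted in windows. Levels of spans and of single ends are per 1e6 reads counted in spans or at ends, with TMM factors of their own. Those levels are not on the scale of the window levels. A difference is a log2 fold change of a fusion over its Dam control with its standard error (SE). All differences come from edgeR's quasi-likelihood test over all genes, with Benjamini-Hochberg adjusted p-values, and a gene passed at an adjusted p below 0.05. In discs sequenced in bulk, marking in more cells and more marking per cell cannot be told apart. The control for Dam-Jra was the average over the 3 Dam sets, those used for Dam-Sd and Yki-Dam included, so the 3 comparisons share control libraries.

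The first question was where each fusion differed from Dam alone at respiratory chain genes. In Dam-Sd against Dam Set 1, 20 of the 88 windows were higher and 29 lower, against 26.1% higher and 30.3% lower among all 14090 windows tested, with a median log2 fold change of −0.40 over the members and −0.17 over all windows. In the spans alone, 11 of 86 were higher and 14 lower, against 23.4% and 28.2% of all 13533 spans. With DESeq2's size factors 14 were higher and 11 lower, against 3671 and 3055 of all spans. In Yki-Dam against Dam Set 2, 12 windows were higher and 12 lower, against 22% and 20.3% of all windows, with medians of −0.02 over the members and −0.13 over all. The Yki-Dam spans gave 11 higher and 6 lower, against 18.7% and 16.1% of all spans (12 lower with replicate numbers as a block). With DESeq2's size factors they gave 8 and 8, against 2327 and 2445 of all spans. The percentages here are from the fit with all libraries and without the block. Without Yki-Dam replicate 1 the lower counts were 22 windows and 11 spans, and the higher spans numbered 6, 5 and 4 without Yki-Dam replicate 1, 2 or 3. Without Dam Set 2 replicate 2 the spans gave 6 higher and 3 lower. In Dam-Jra against the Dam sets, 24 windows were higher and 25 lower, against 32.6% and 36.3% of all windows, with medians of −0.03 over the members and −0.10 over all. The Dam-Jra spans gave 25 higher and 22 lower, against 30% and 34.8% of all spans (13 lower without Dam-Jra replicate 3). The shares of members that passed in each direction thus stood below or within a few percentage points of the shares over all genes.

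**Figure D1:**
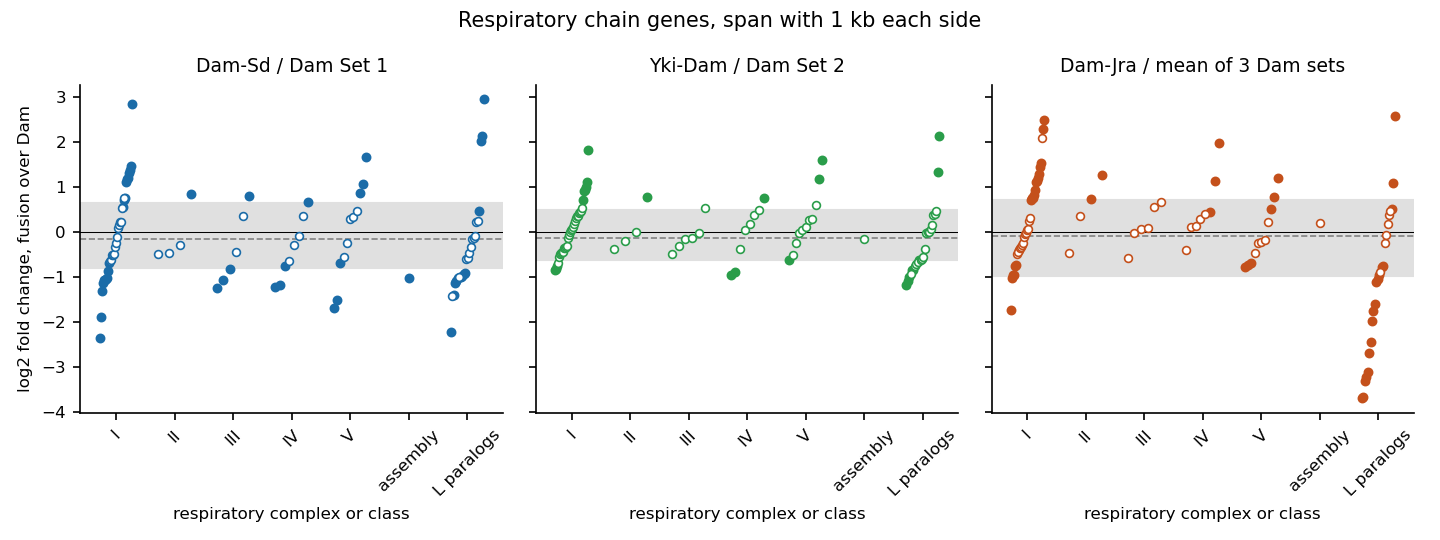
Log2 fold change in the window (vertical axis) of each respiratory chain gene, by class (horizontal axis) and comparison (panels); filled points passed at adjusted p below 0.05. The grey band holds the central part of all genes from the lower to the upper quartile, and the dashed line is their median. Complex I has points above and below the band in all 3 panels, and the L paralogs of Dam-Jra reach down to −3.69.

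The subunit genes and the L paralogs were also counted apart, to be read against the shares of all windows above (26.1% higher and 30.3% lower with Dam-Sd, 22% and 20.3% with Yki-Dam, 32.6% and 36.3% with Dam-Jra). Of the 63 subunit genes, 16 windows were higher and 19 lower with Dam-Sd (median −0.29), 10 and 6 with Yki-Dam (median 0.03), and 21 and 10 with Dam-Jra (median 0.11). Of the 24 L paralogs, 4 were higher and 9 lower with Dam-Sd (median −0.58), 2 and 6 with Yki-Dam (median −0.58), and 3 and 15 with Dam-Jra (median −1.01). Spans alone gave 22 subunit genes higher and 7 lower with Dam-Jra (median 0.32), and 3 of 22 L paralogs higher and 15 lower (median −1.32), against 30% higher and 34.8% lower of all spans. Subunit genes lower with Dam-Jra numbered 15 windows and 14 spans against Dam Set 1 alone, and 7 windows and 3 spans against Dam Set 3 alone. Of all 14090 windows and 13533 spans, 5229 and 4908 were lower against Dam Set 1 alone, and 3808 and 3216 against Dam Set 3 alone.

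Complex I takes electrons from NADH, and it has 34 of the subunit genes. With Dam-Sd 10 of the 34 windows were higher and 10 lower (26.1% and 30.3% of all windows), with Yki-Dam 6 and 3 (22% and 20.3%), and with Dam-Jra 13 and 7 (32.6% and 36.3%). ND-75 (chrX:8248651-8251687) encodes the fly counterpart of human NDUFS1, a large iron-sulphur subunit of the arm that takes in electrons. Its window had 57.6, 40.7 and 26.8 CPM with Dam-Sd, against 22.8, 14.1 and 16.9 CPM in Dam Set 1. With Yki-Dam it had 67.8, 37.9 and 49.0 CPM, against 31.7, 21.7 and 17.4 CPM in Dam Set 2. With Dam-Jra it had 137, 138 and 128 CPM, against 14.1 to 34.3 CPM in the 9 Dam libraries. In each of these 3 comparisons the fusion libraries lay above all their Dam libraries. The log2 fold change was 1.20 ± 0.27 with Dam-Sd (adjusted p = 8.49e-04 by edgeR's quasi-likelihood test), 1.11 ± 0.26 with Yki-Dam (0.00248) and 2.48 ± 0.19 with Dam-Jra (7.75e-10). Without Yki-Dam replicate 1 the Yki-Dam value was 0.73, and against the mean of the 3 Dam sets the Dam-Sd value was 0.78.

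The high ends at ND-75 lay at one edge of the gene and beyond it. In the span alone the log2 fold change was 0.10 with Dam-Sd (adjusted p = 0.783), 0.12 with Yki-Dam (0.755) and 0.93 ± 0.21 with Dam-Jra (6.7e-04, edgeR; −0.15 with library size alone). Of the 12 single GATC ends tested there, 10 were inside the span, with median log2 fold changes of −1.95 with Dam-Sd, −1.05 with Yki-Dam and −1.05 with Dam-Jra. The other 2 were within 1 kb outside it, with medians of 2.26, 1.91 and 3.54, and both passed in each comparison. The highest end lay at chrX:8252258, 571 bp outside the span and in no other gene's span, with 21.7 CPM in Dam-Sd against 3.13 CPM in Dam Set 1, 26.0 CPM in Yki-Dam against 5.59 CPM in Dam Set 2, and 94.1 CPM in Dam-Jra against 7.67 CPM over the Dam sets. The window also holds parts of Trxr1 and CG1632.

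ND-23 (chr3R:15836048-15837117), the counterpart of NDUFS8, another iron-sulphur subunit of that arm, was high with Dam-Jra. Its window had 69.8, 69.8 and 76.2 CPM with Dam-Jra, against 10.4 to 21.1 CPM in the 9 Dam libraries. It had 6.36, 10.03 and 15.3 CPM with Dam-Sd, against 13.7 to 16.8 CPM in Dam Set 1, and 11.6 to 14.48 CPM with Yki-Dam, against 16.9 to 21.1 CPM in Dam Set 2. The Dam-Jra libraries stood apart from all Dam libraries, the Dam-Sd libraries overlapped theirs, and the Yki-Dam libraries lay below theirs. The log2 fold change was 2.29 ± 0.15 with Dam-Jra (adjusted p = 7.85e-11), −0.51 with Dam-Sd (0.0688) and −0.49 with Yki-Dam (0.0764). Counted over ends in no other gene's span, the Dam-Jra value was 1.18. The highest end, 847 bp outside the gene, lies in the span of Arpc3A, a neighbour encoding an actin-nucleation subunit.

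ND-MNLL (chrX:7893053-7893798), the counterpart of NDUFB1, a small membrane-arm subunit, had 706, 679 and 385 CPM with Dam-Sd, against 109, 97.0 and 41.8 CPM in Dam Set 1. With Yki-Dam it had 474, 428 and 451 CPM, against 174, 96.6 and 114 CPM in Dam Set 2, and with Dam-Jra 298, 317 and 307 CPM, against 41.8 to 195 CPM in the Dam libraries. No fusion library overlapped its controls. The window rose by 2.84 ± 0.30 with Dam-Sd (adjusted p = 3.32e-07), 1.81 ± 0.29 with Yki-Dam (6.47e-05) and 1.29 ± 0.22 with Dam-Jra (2.76e-05), the last at 0.72 against Dam Set 3 alone. In the span the order of the values was the other way round, with 0.21 with Dam-Sd (0.636), 0.83 with Yki-Dam (0.0451; −0.11 with library size alone, and not passing without any 1 Yki-Dam replicate or Dam Set 2 replicate 2 or 3) and 1.66 ± 0.22 with Dam-Jra (2e-06; 0.97 against Dam Set 3 alone). The 12 ends within 1 kb outside the span had medians of 2.49, 1.11 and 1.40, and the 3 ends inside it −0.46, 0.48 and 1.79. All 4 GATC ends of the span lie in CG45089 as well, so reads of the 2 genes cannot be told apart there.

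**Figure D2:**
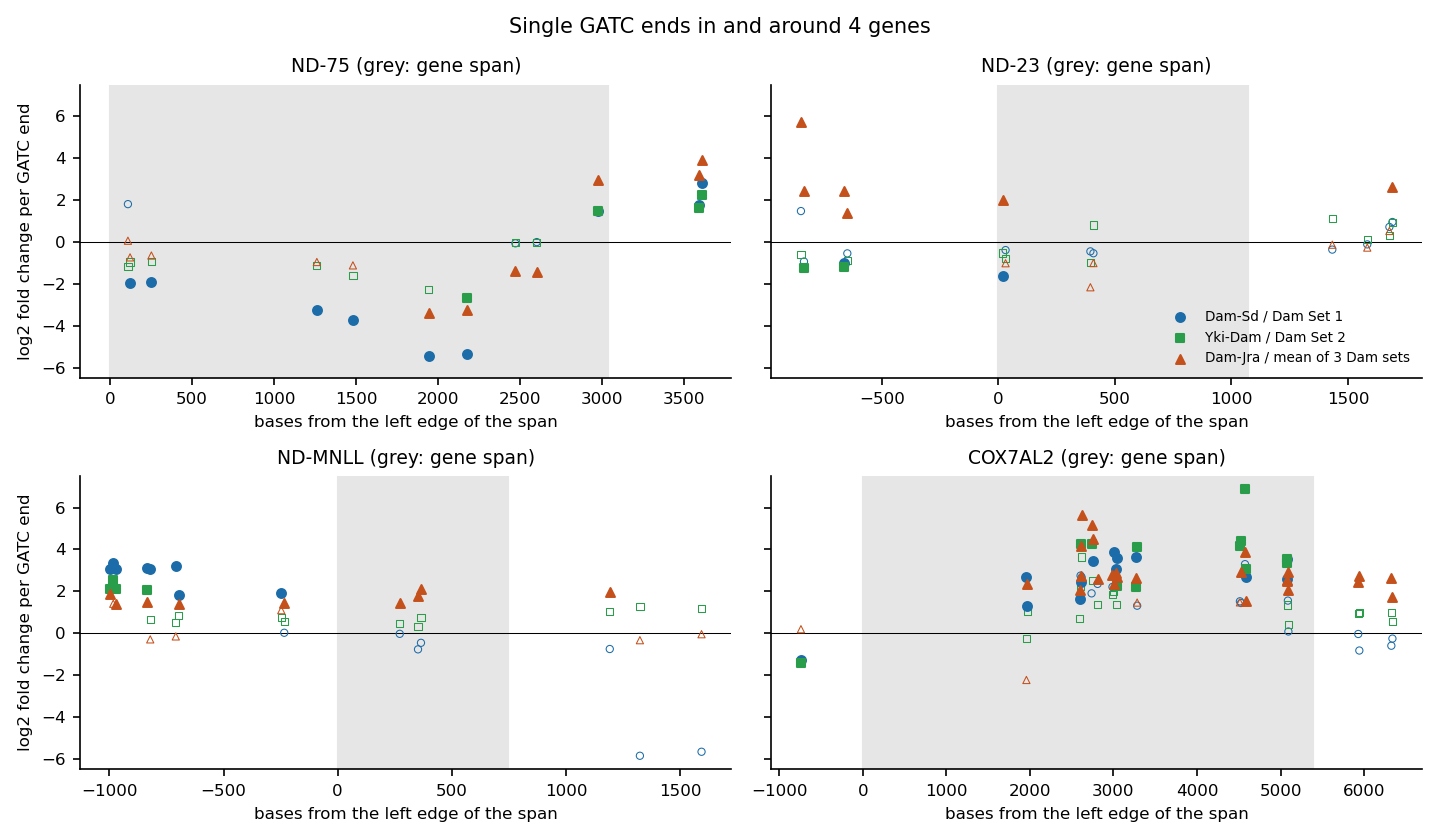
Log2 fold change of single GATC ends (vertical axis) by distance in bases from the left edge of the gene span (horizontal axis) for ND-75, ND-23, ND-MNLL and COX7AL2 in the 3 comparisons; the span is shaded and filled points passed. At ND-75 the ends that passed as higher lie at the right edge of the span and beyond it, at ND-MNLL those of Dam-Sd lie outside the span, and at COX7AL2 inside it.

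ND-39 (chr3L:20492082-20497084), the counterpart of NDUFA9, had 240, 181 and 102 CPM with Dam-Sd, against 101, 75.02 and 68.4 CPM in Dam Set 1, a log2 fold change of 1.09 ± 0.23 (adjusted p = 5.31e-04) that was −0.05 with library size alone. With Yki-Dam it was 0.69 ± 0.24 (0.0229), −0.11 with library size alone, and it did not pass without any 1 of the 3 Yki-Dam replicates, without replicate 1 or 2 of Dam Set 2, or against the mean of the 3 Dam sets (0.39). With Dam-Jra it was 1.53 ± 0.18 (2.54e-07), and 0.87 against Dam Set 3 alone. Of its 44 window ends, 22 lie in no other gene's span, and over these the values were 0.13 (0.721) with Dam-Sd, −0.01 (0.98) with Yki-Dam and 0.75 (0.00488) with Dam-Jra. ND-15 (chr2L:114726-156030, NDUFS5 in humans) has a span of 41305 bp with 258 ends and 11 other genes in it. It had 1189, 991 and 826 CPM with Dam-Sd, against 449, 386 and 374 CPM in Dam Set 1, and its window rose by 1.31 ± 0.19 with Dam-Sd, 0.90 ± 0.19 with Yki-Dam (0.58 without replicate 1 of Yki-Dam) and 0.74 ± 0.15 with Dam-Jra (0.46 and 0.0503 against Dam Set 3 alone). These values describe a region of many genes.

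ND-B14.7 (chr2R:21025078-21026086; NDUFA11 in humans) had 33.5, 24.8 and 22.8 CPM with Dam-Sd, against 11.2, 8.75 and 9.33 CPM in Dam Set 1. It had 15.3, 14.3 and 12.1 CPM with Yki-Dam, against 10.9, 13.0 and 13.4 CPM in Dam Set 2, and 25.6, 29.2 and 25.3 CPM with Dam-Jra, against 6.96 to 13.4 CPM in the Dam libraries. The Yki-Dam libraries overlapped theirs and those of the other fusions did not. It rose by 1.46 ± 0.20 with Dam-Sd (adjusted p = 4.94e-06) and 1.43 ± 0.16 with Dam-Jra (1.75e-07), and was 0.17 with Yki-Dam (0.544). ND-PDSW (chr2L:3466157-3467334; NDUFB10) rose by 1.37 ± 0.36 with Dam-Sd, at 13.6 to 20.6 CPM against 5.77 to 6.95 CPM in Dam Set 1, and was 0.99 ± 0.40 with Yki-Dam (0.0489) and −0.37 with Dam-Jra (0.458). With Yki-Dam it had 3.75, 11.4 and 17.6 CPM, against 2.52, 8.74 and 6.02 CPM in Dam Set 2, with overlap. Its neighbour in the window is msl-2, a dosage compensation gene.

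Among the low complex I subunits were ND-MLRQ and ND-19. ND-MLRQ, the counterpart of NDUFA4, which in mammals sits with complex IV, had 4.74, 8.41 and 13.0 CPM with Dam-Sd, against 17.8, 20.6 and 28.5 CPM in Dam Set 1. It fell by 1.32 on the log2 scale with Dam-Sd (adjusted p = 2.98e-04), by 0.82 with Yki-Dam (0.018) and by 0.95 with Dam-Jra (0.00114), with lower spans as well. ND-19 (chr2R:24664398-24665439; NDUFA8) had 1.40 to 3.02 CPM with Dam-Jra, against 4.58 to 12.3 CPM in the Dam libraries, and fell by 1.74 there (1.87e-04) and by 2.36 with Dam-Sd (3.3e-05). ND-B8 (NDUFA2), named after its values were seen, fell by 1.15 with Dam-Sd and 0.77 with Yki-Dam and was 0.70 (8.05e-04) with Dam-Jra. The Dam-Jra value holds against Dam Set 1 alone (1.15) but not against Dam Set 3 alone (−0.02, 0.937), whose libraries had 35.8 to 39.0 CPM, with 35.1 to 37.9 CPM in Dam-Jra.

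**Figure D3:**
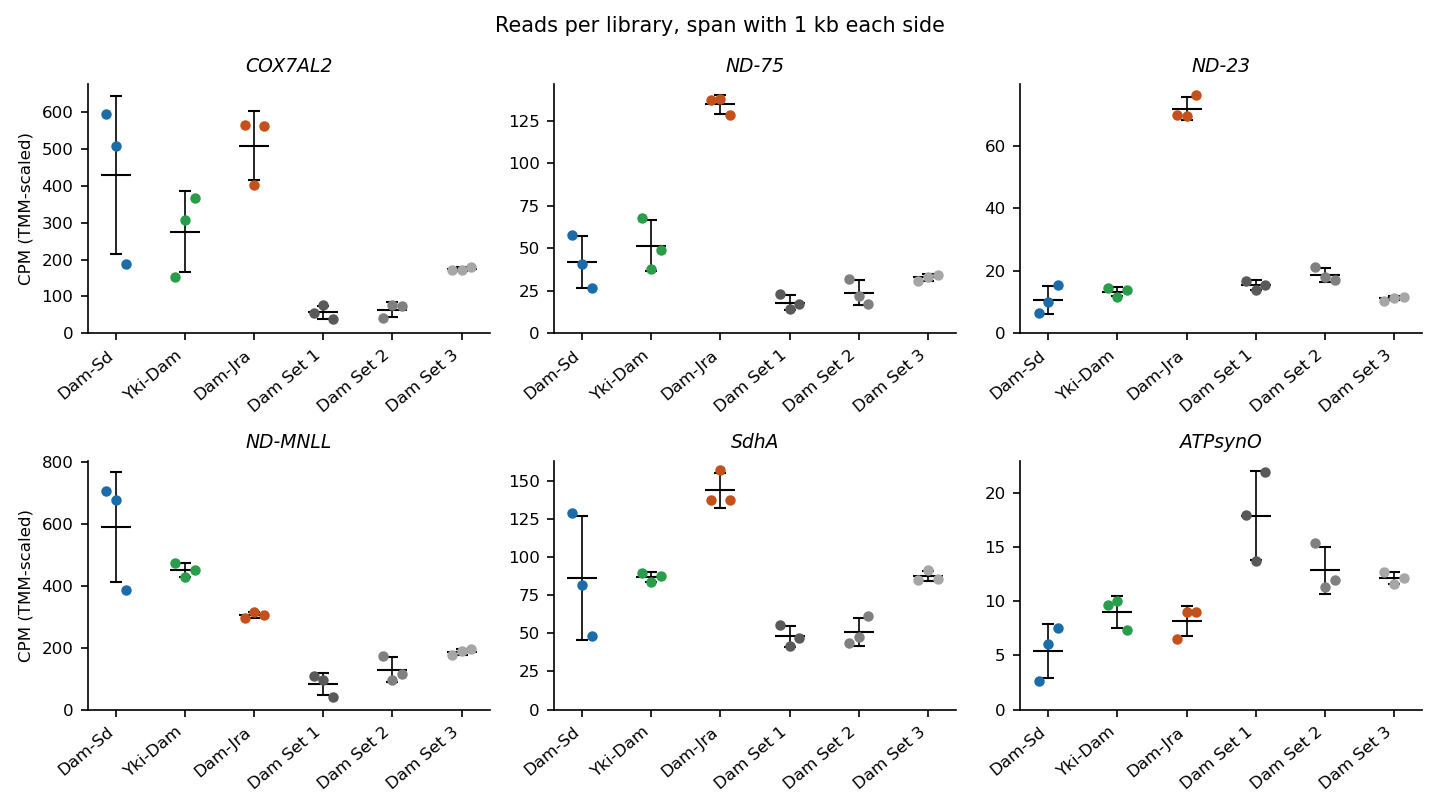
Level in the window in CPM (vertical axis, from 0) in each of the 18 libraries (points) for COX7AL2, ND-75, ND-23, ND-MNLL, SdhA and ATPsynO, with Dam-Sd, Yki-Dam and Dam-Jra left of Dam Sets 1, 2 and 3; bars are means ± SD (n = 3). The 3 Dam-Jra libraries of ND-75 and ND-23 lie above every other library, and those of ATPsynO lie below the Dam libraries.

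Complex II couples the citric acid cycle to the chain, and SdhA encodes its flavoprotein, which oxidises succinate. SdhA (chr2R:19391863-19395971) had 129, 81.7 and 48.1 CPM with Dam-Sd, against 55.3, 41.8 and 47.1 CPM in Dam Set 1. It had 89.8, 83.5 and 87.4 CPM with Yki-Dam, against 43.7, 47.6 and 61.3 CPM in Dam Set 2. It had 138, 157 and 138 CPM with Dam-Jra, against 41.8 to 91.4 CPM in the Dam libraries. Dam-Sd replicate 3 overlapped its controls, and the libraries of the other fusions did not overlap theirs. The log2 fold change was 0.83 ± 0.24 with Dam-Sd (adjusted p = 0.00549) and 0.77 ± 0.24 with Yki-Dam (0.0137), both below 0 with library size alone, and 1.27 ± 0.18 with Dam-Jra (3.67e-06; 0.72 against Dam Set 3 alone). Without Dam-Sd replicate 1 the Dam-Sd value was 0.39 and did not pass (0.131), and without any 1 Yki-Dam replicate or Dam Set 2 replicate 1 the Yki-Dam value did not pass. The window of SdhC, a membrane anchor subunit named after its values were seen, rose by 0.74 ± 0.17 with Dam-Jra, where SdhB (the iron-sulphur subunit, −0.47) and SdhD (the other anchor, 0.34) did not pass. Against Dam Set 1 alone SdhB was −0.96 (0.0425) and SdhD 0.50 (0.0461). With Dam-Sd and Yki-Dam the windows of SdhB, SdhC and SdhD did not pass, while the span of SdhC fell by 2.11 with Dam-Sd (8.43e-06) and by 0.67 with Yki-Dam (0.0354), and that of SdhB by 1.49 with Dam-Sd (0.029). With Dam-Jra the span of SdhC was −0.35, opposite in sign to its window, which also holds parts of cu and Tctp.

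Complex III moves electrons on to cytochrome c. With Dam-Sd 1 of its 6 windows was higher and 3 were lower (26.1% and 30.3% of all windows). None passed with Yki-Dam (22% and 20.3%) or Dam-Jra (32.6% and 36.3%) by edgeR's quasi-likelihood test. UQCR-C1 (chr3R:14890231-14892387), a core subunit, had 18.7, 15.2 and 25.7 CPM with Dam-Sd, against 56.6, 32.7 and 52.8 CPM in Dam Set 1, without overlap. It fell by 1.25 on the log2 scale with Dam-Sd (adjusted p = 3.19e-04) and was −0.32 with Yki-Dam (0.301) and −0.03 with Dam-Jra (0.909). UQCR-6.4, a small subunit, fell by 0.83 with Dam-Sd (0.0026) and was −0.49 with Yki-Dam (0.0714; −0.50 with 0.0322 when replicate numbers were a block). UQCR-14 had the smallest p of the complex with Dam-Jra, at −0.58 (0.134), and against Dam Set 1 alone it was −0.86 (0.0437).

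Complex IV reduces oxygen. Of its 8 nuclear subunit windows, 1 was higher and 3 lower with Dam-Sd (26.1% and 30.3% of all windows), 1 and 2 with Yki-Dam (22% and 20.3%), and 3 and 0 with Dam-Jra (32.6% and 36.3%). COX8 (chr3L:21538859-21539447), a small membrane subunit, had 63.0, 132 and 112 CPM with Dam-Jra, against 14.4 to 42.8 CPM in the Dam libraries, and rose by 1.97 ± 0.21 (adjusted p = 1.1e-07; span 2.03 ± 0.44). In the span alone Dam-Jra had 5.75, 43.75 and 34.1 CPM, against 2.07 to 15.7 CPM in the Dam libraries. Dam-Jra replicate 1 overlapped the Dam libraries there, and the other Dam-Jra replicates did not. With Dam-Sd COX8 had 30.3, 27.3 and 19.6 CPM in its window, against 42.8, 28.1 and 22.7 CPM in Dam Set 1, with overlap (−0.29, 0.432). Its window is shared with Rpn10 and VhaM9.7-b. COX7A (chr3R:8339944-8341043) had 24.0, 28.8 and 38.9 CPM with Dam-Sd, against 74.3, 70.9 and 64.7 CPM in Dam Set 1, and 29.8 to 31.0 CPM with Yki-Dam, against 52.4 to 60.2 CPM in Dam Set 2. With Dam-Jra it had 85.2 to 87.1 CPM, against 52.4 to 74.5 CPM in the Dam libraries. Its window fell by 1.18 ± 0.17 on the log2 scale with Dam-Sd (1.04e-05) and by 0.89 ± 0.17 with Yki-Dam (4.66e-04), and it rose by 0.44 ± 0.13 with Dam-Jra (0.00538; 0.31 and 0.0958 against Dam Set 1 alone). The span of COX7A was −0.33 with Dam-Jra, opposite in sign to its window. By edgeR that span was −0.66 (0.0306) against Dam Set 1 alone and 0.11 (0.762) against Dam Set 3 alone. COX7B, named after its values were seen, fell by 1.23 with Dam-Sd and 0.96 with Yki-Dam and was 0.11 with Dam-Jra (0.58).

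COX4 (chr2L:19958713-19960065), a regulatory subunit, had 10.2, 14.9 and 18.8 CPM with Dam-Sd, against 22.3, 25.6 and 27.2 CPM in Dam Set 1. It fell by 0.76 ± 0.27 on the log2 scale (adjusted p = 0.0203), which was −0.31 and did not pass (0.263) against the mean of the 3 Dam sets, and did not pass without Dam-Sd replicate 1 or 2 or Dam Set 1 replicate 3. It was −0.38 with Yki-Dam (0.282) and −0.41 with Dam-Jra (0.123; −0.86 and 0.00738 against Dam Set 1 alone). COX6B rose by 0.66 ± 0.18 with Dam-Sd (0.00402), at 52.1 to 60.0 CPM against 27.6 to 41.9 CPM in Dam Set 1. That value was −0.41 with library size alone and −0.15 (0.787) over ends in no other gene's span. Its span overlaps CG18809.

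Complex V makes ATP. With Dam-Sd 3 of its 11 windows were higher and 3 lower (26.1% and 30.3% of all windows), with Yki-Dam 2 and 1 (22% and 20.3%), and with Dam-Jra 3 and 3 (32.6% and 36.3%). ATPsynC (chr3R:31216145-31219630), the proteolipid of the rotating membrane ring, had 236, 221 and 159 CPM with Dam-Sd, against 114, 101 and 78.4 CPM in Dam Set 1, and rose by 1.07 ± 0.20 (adjusted p = 1.63e-04), a value of −0.03 with library size alone. With Yki-Dam it rose by 1.18 ± 0.20 (1.45e-04), at 305, 207 and 214 CPM against 84.5 to 120 CPM in Dam Set 2, and with Dam-Jra it was 0.51 ± 0.16 (0.00842). Against Dam Set 3 alone that value was 0.05 (0.848), with 161 to 183 CPM in Dam-Jra and 154 to 174 CPM in Dam Set 3. ATPsynE (chr3R:14326947-14327735), subunit e, rose by 1.67 ± 0.22 with Dam-Sd (2.98e-06), 1.58 ± 0.23 with Yki-Dam (2.21e-05) and 1.20 ± 0.17 with Dam-Jra (4.34e-06; 0.78 against Dam Set 3 alone). Its span gave −0.11 (0.752) with Dam-Sd. Over ends in no other gene's span the window gave −0.25 (0.452) with Dam-Sd and 0.83 (0.0115) with Yki-Dam. The highest end with Dam-Sd, 643 bp outside the gene, lies in the span of Afti.

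A stalk, a shaft and a catalytic subunit of complex V were low with Dam-Sd. ATPsynO (chr3R:15265591-15266690), the stalk subunit also known as OSCP, had 2.66, 6.09 and 7.51 CPM with Dam-Sd, against 18.0, 13.8 and 22.0 CPM in Dam Set 1, without overlap. It fell by 1.69 ± 0.28 on the log2 scale with Dam-Sd (adjusted p = 3.91e-05) and by 0.79 ± 0.23 with Dam-Jra (0.00486; −0.57 and 0.0867 against Dam Set 3 alone), and was −0.53 with Yki-Dam (0.111). ATPsyngamma (chr3R:29747704-29749163), the central shaft, fell by 1.52 ± 0.26 with Dam-Sd (4.52e-05) and by 0.63 ± 0.25 with Yki-Dam (0.049), and was −0.46 with Dam-Jra (0.0508; −0.78 and 0.00657 against Dam Set 1 alone). ATPsynbeta (chr4:1031484-1034917), the catalytic subunit, had 22.9, 13.0 and 30.7 CPM in its window with Dam-Sd, against 37.4, 27.8 and 42.8 CPM in Dam Set 1, with overlap. It fell by 0.69 ± 0.23 with Dam-Sd (0.0138; −0.40 and 0.0961 without Dam-Sd replicate 2, −0.55 and 0.0727 without Dam Set 1 replicate 3) and by 0.70 ± 0.20 with Dam-Jra (0.00408), and was −0.25 with Yki-Dam (0.406). Its span alone fell by 2.23 ± 0.32 with Dam-Sd (8.96e-06), 0.99 ± 0.30 with Yki-Dam (0.0151; −0.66 and 0.102 without Dam Set 2 replicate 1) and 1.16 ± 0.26 with Dam-Jra (5.6e-04).

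**Figure D4:**
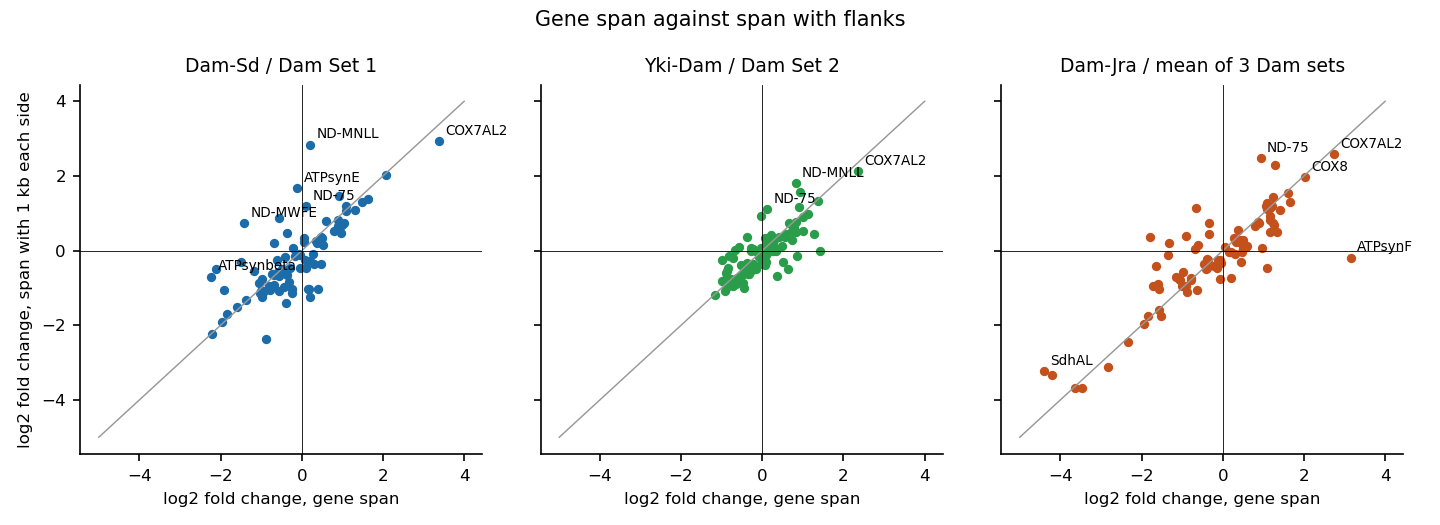
Log2 fold change of each gene in the window (vertical axis) against that in the gene span alone (horizontal axis) in the 3 comparisons, with the line of equal values. ND-MNLL, ATPsynE and ND-75 lie far above the line with Dam-Sd and ATPsynbeta's span lies below its window. ND-B14.5A, with no read in its span in any Dam-Jra or Dam Set 3 library, is left out of the Dam-Jra panel.

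The span and the window gave opposite calls for 1 member, ND-MWFE with Dam-Sd (span −1.42, window 0.75), and for none with Yki-Dam or Dam-Jra, against 135, 20 and 152 of 13533 genes. Members that passed in both with the same sign numbered 11 higher and 11 lower with Dam-Sd (20.4% and 22.1% of all genes), 9 and 4 with Yki-Dam (16.6% and 12.9%), and 20 and 18 with Dam-Jra (26.5% and 29.3%). Of 637 single ends tested in the spans of subunit genes, 161 passed with Dam-Sd (28.6% of all ends), 43 of them higher (13% of all ends), 66 passed with Yki-Dam (16.1%), 35 of them higher (8.96%), and 206 passed with Dam-Jra (41.8%), 118 of them higher (20.2%). Ends of 1 gene share fragments and are not replicates.

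Sdhaf3, which helps mature the iron-sulphur subunit of complex II, had 5.92, 7.80 and 7.44 CPM with Dam-Sd, against 14.9, 12.8 and 15.5 CPM in Dam Set 1, and its window fell by 1.02 ± 0.28 on the log2 scale (adjusted p = 0.00431). Over ends in no other gene's span that value was −0.19 (0.801), and it was −0.16 with Yki-Dam (0.661) and 0.19 with Dam-Jra (0.413).

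Among the L paralogs, COX7AL2 had the largest log2 fold change of all 88 windows in each comparison with Dam alone (for Dam-Jra, against the mean of the 3 sets). COX7AL2 (chr2L:2192525-2197912) has 24 ends in its span, none of them in another gene. It had 595, 510 and 188 CPM with Dam-Sd, against 54.3, 75.4 and 39.5 CPM in Dam Set 1. It had 153, 308 and 367 CPM with Yki-Dam, against 39.6, 77.3 and 74.0 CPM in Dam Set 2. It had 565, 402 and 563 CPM with Dam-Jra, against 39.5 to 180 CPM in the Dam libraries. No fusion library overlapped its controls, and the 3 libraries of Dam Set 3, at 171 to 180 CPM, lay above the other Dam libraries. It rose by 2.94 ± 0.38 on the log2 scale with Dam-Sd (adjusted p = 2.45e-06), 2.12 ± 0.37 with Yki-Dam (1.67e-04) and 2.58 ± 0.26 with Dam-Jra (5.28e-08; 1.55 against Dam Set 3 alone). Of 23 single ends tested in its span, 20 passed as higher with Dam-Jra. Its partner by name, COX7A, gave the window values −1.18, −0.89 and 0.44 above, the last with a span of −0.33.

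UQCR-11L (chr2R:8677219-8677661), which lies inside the fatty acid activating gene Acsl, had 110, 92.8 and 59.0 CPM with Dam-Sd, against 23.4, 22.1 and 18.8 CPM in Dam Set 1, and rose by 2.02 ± 0.22 with Dam-Sd (adjusted p = 3.79e-07), 1.32 ± 0.22 with Yki-Dam (9.43e-05) and 1.09 ± 0.17 with Dam-Jra (1.16e-05; 0.63 against Dam Set 3 alone). All of its ends belong to Acsl too. ATPsynGL, named after its values were seen, rose by 2.12 ± 0.25 with Dam-Sd, and was 0.40 with Yki-Dam (0.216) and 0.45 with Dam-Jra (0.0611; 1.15 and 6.68e-04 against Dam Set 1 alone).

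Of the 15 L paralogs that were lower with Dam-Jra, the lowest had few reads. SdhAL (chr3L:11922610-11924757), a paralog of SdhA inside CG44837, had 19, 22 and 24 reads in its window with Dam-Jra, against 329 to 648 reads in Dam Set 1, 342 to 455 in Dam Set 2 and 164 to 368 in Dam Set 3. UQCR-14L had 19, 7 and 5 reads with Dam-Jra, against 90 to 307 in the 9 Dam libraries, and ND-24L had 11, 6 and 2, against 30 to 167. ATPsynCF6L had 13, 5 and 3 reads, against 50 to 394. For all 4 paralogs every Dam-Jra library lay below every Dam library. SdhAL fell by 3.23 ± 0.40 on the log2 scale (adjusted p = 6.36e-07), UQCR-14L by 3.32 ± 0.46 (1.96e-06), ND-24L by 3.12 ± 0.66 (2.4e-04) and ATPsynCF6L by 3.69 ± 1.16 (0.00757; −2.43 and 0.188 against Dam Set 3 alone). COX6AL2 fell by 1.97 ± 0.34 with Dam-Jra (4.31e-05), at 4.42 to 7.14 CPM against 13.4 to 32.7 CPM.

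The low L paralogs with Dam-Jra numbered 15 of 24 windows and 15 of 22 spans against the mean of the Dam sets, 16 and 15 against Dam Set 1 alone, and 11 and 8 against Dam Set 3 alone. Of all 14090 windows, 5116, 5229 and 3808 were lower against these 3 controls. Of all 13533 spans, 4704, 4908 and 3216 were. Without Dam-Jra replicate 2 or 3 the lower L paralog spans numbered 9. The counts also moved with the Dam signal itself. All windows were put in 5 bins of 2818 by Dam signal. In the bin of lowest signal 65.2% of all genes were lower with Dam-Jra, with 8 of 9 L paralogs and 0 of 6 subunit genes. In the bins above it 50.6%, 36.9% and 22% of all genes were lower, with 3 of 3, 2 of 5 and 2 of 4 L paralogs and 5 of 13, 3 of 18 and 2 of 10 subunit genes. In the bin of highest signal 6.96% were lower, with 0 of 3 L paralogs and 0 of 16 subunit genes. With Dam-Jra the median level per kb of window was 1.70 CPM for L paralogs, 7.05 CPM for subunit genes and 4.34 CPM for all genes. In Dam Sets 1, 2 and 3 the L paralogs had 3.82, 3.57 and 3.08 CPM per kb, the subunit genes 5.67, 4.79 and 6.39, and all genes 4.94, 4.47 and 4.80. Of the 10 L paralogs whose span ends all lie inside another gene, 6 were lower with Dam-Jra, and of the other 14, 9 were. The part of the Dam signal and of host genes in these values was not tested.

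Of the 9 L paralogs that were lower with Dam-Sd and 6 with Yki-Dam, 2 and 3 passed in the span as well. ND-51L2, which lies inside Trpm, had 1.18, 2.15 and 3.00 CPM with Dam-Sd, against 8.75 to 11.6 CPM in Dam Set 1, and fell by 2.23 ± 0.42 on the log2 scale (adjusted p = 1.5e-04), and ND-51L1, inside Smurf, fell by 0.94 (0.00455). With Yki-Dam ND-49L, inside Fur1, fell by 1.18 ± 0.37 (0.0148; −0.93 and 0.0688 without Dam Set 2 replicate 1), COX6AL2 by 1.09 ± 0.32 (0.0103; −0.57 and 0.0969 against the mean of the 3 Dam sets) and ND-51L1 by 0.84 (0.0144). Of 20 pairs of an L paralog and the subunit gene it is named after, the paralog had the lower log2 fold change in 10 pairs with Dam-Sd, 13 with Yki-Dam and 17 with Dam-Jra, with median differences of 0.05, −0.31 and −0.72. In the spans these were 9, 12 and 12 of 18 pairs. Pairs that share a partner are not independent.

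**Figure D5:**
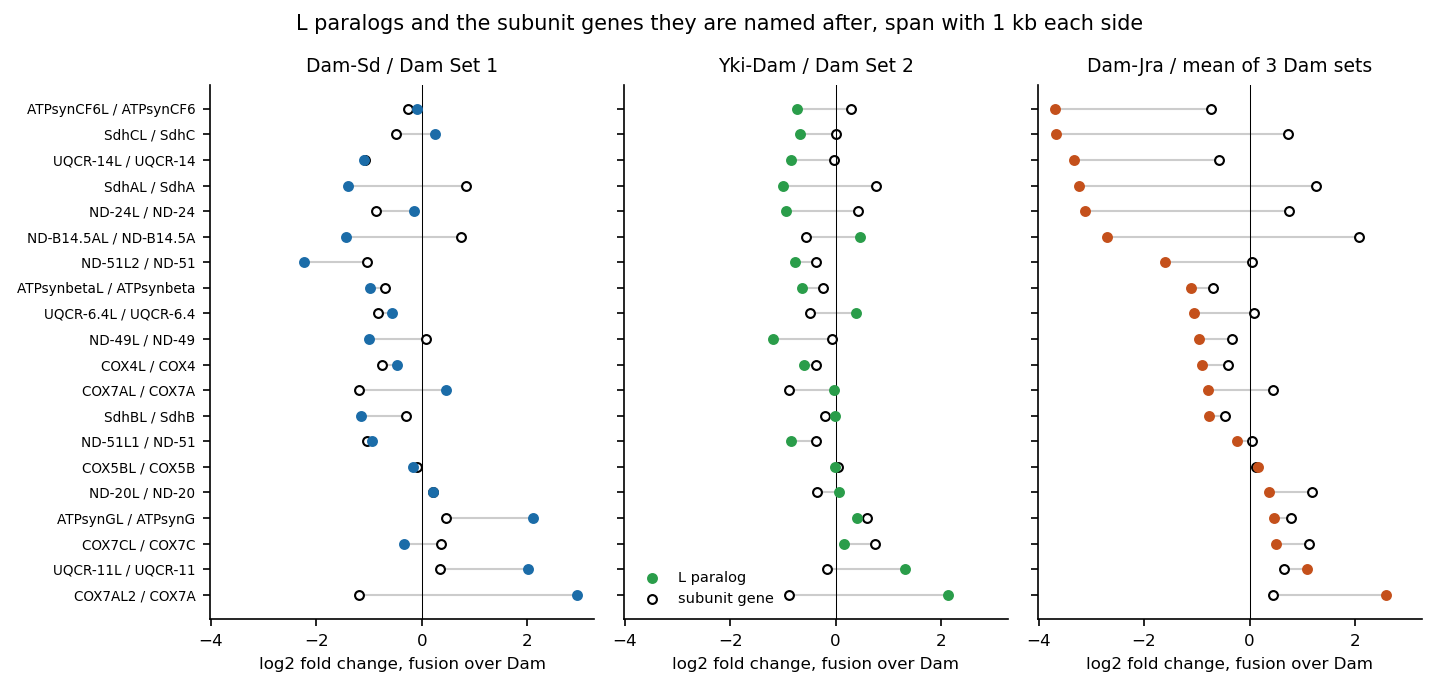
Log2 fold change in the window of each L paralog and of the subunit gene it is named after (rows, 20 pairs), by comparison (panels; horizontal axis). With Dam-Jra the paralog lies left of its partner in 17 pairs, as at SdhAL (−3.23, SdhA 1.27), and COX7AL2 lies right of COX7A in each panel.

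Whether the fusions differed from each other was tested on the differences of their fold changes. Dam-Sd minus Yki-Dam gave 2 of 88 windows, both higher, against 1.4% higher, 2.2% lower and 3.6% in either direction among all windows (18 with replicate numbers as a block, 13 without Dam-Sd replicate 3, 6 without Dam Set 2 replicate 1, and 1 without Dam Set 1 replicate 3 or Dam Set 2 replicate 3). The shares over all windows are from the fit without the block. Its 2 windows were ATPsynGL (1.72 ± 0.36, adjusted p = 0.0145) and ND-B14.7 (1.29 ± 0.29, 0.0224), whose span alone gave 0.65 (0.417). Dam-Jra minus Dam-Sd gave 23 higher and 13 lower, against 19.7% and 21% (40.7% in either direction) of all windows, and Dam-Jra minus Yki-Dam gave 11 higher and 9 lower, against 12.1% and 12.7% (24.9%), which in all were 13 without Dam-Jra replicate 2 and 12 without replicate 3. Among them ND-23 was higher with Dam-Jra by 2.79 ± 0.25 than with Dam-Sd (9.37e-08) and by 2.78 ± 0.24 than with Yki-Dam (9.96e-08). COX8 was higher by 2.26 ± 0.34 and 1.48 ± 0.34, COX7A by 1.62 ± 0.20 and 1.33 ± 0.20, and ND-75 by 1.28 ± 0.30 and 1.37 ± 0.29. SdhAL was lower by 1.82 ± 0.59 than with Dam-Sd and by 2.22 ± 0.52 than with Yki-Dam, and SdhCL, named after its values were seen, by 3.91 ± 0.81 and 2.99 ± 0.81. Of the 63 subunit genes 20 were higher and 5 lower in Dam-Jra minus Dam-Sd, and 11 and 3 in Dam-Jra minus Yki-Dam. Of the 24 L paralogs 2 were higher and 8 lower, and 0 and 6. ND-MNLL was lower with Dam-Jra than with Dam-Sd by 1.55 ± 0.33 in the window (0.00101) and higher by 1.44 ± 0.37 in the span (0.00525).

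The authors' deposited peak lists hold 5057 peaks for Dam-Sd, 3878 for Yki-Dam and 4568 for Dam-Jra, and their scores are the authors' own. A peak overlapped the window of 15 of the 88 members for Dam-Sd (26.4% of protein-coding genes), 11 for Yki-Dam (20.8%) and 21 for Dam-Jra (26.8%). The shares were 17%, 12.5% and 23.9% of members. L paralogs held 2, 1 and 2 of these. A peak overlapped the span alone of 5 members for Dam-Sd (19.5% of protein-coding genes), 8 for Yki-Dam (15.5%) and 14 for Dam-Jra (19.9%). One lay within 1 kb of the gene start, where the authors' lists give that start, of 4 members (11.3%), 6 (9.54%) and 10 (12%). With each list limited to its peaks of smaller p-values the window counts were 9 (14.6%), 5 (10.8%) and 11 (15.1%). For Dam-Jra the authors' deposited table gave a log2 fold change of 4.47 for the peak at ND-23 (chr3R:15834928-15836074), 4.39 for a peak 404 bp from COX5A (chr3R:11818092-11818955), and 2.37 for that at ND-75 (chrX:8251622-8253076). COX5A, a subunit of complex IV, did not pass in the window in the 3 comparisons (0.39 and 0.114 with Dam-Jra), but against Dam Set 3 alone the Dam-Jra window was 1.17 (0.00217), at 8.65 to 10.07 CPM against 3.45 to 4.88 CPM. For Dam-Sd the largest value at a member in the authors' deposited table was 3.63, for a peak 839 bp from ND-23 (chr3R:15834928-15835209) that starts where the Dam-Jra peak does, while the whole ND-23 window was −0.51 with Dam-Sd and did not pass. For Dam-Sd the authors' deposited table also gave 2.75 for a peak in COX7AL2 and 2.03 for a peak 239 bp from ND-MNLL.

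Genes of related mitochondrial lists gave these counts in the window, where of all windows 26.1% were higher and 30.3% lower with Dam-Sd (median −0.17), 22% and 20.3% with Yki-Dam (−0.13), and 32.6% and 36.3% with Dam-Jra (−0.10). Of 12 respiratory chain genes under other symbols, such as blw (the alpha subunit of ATP synthase) and Cyt-c1, 0 were higher and 4 lower with Dam-Sd, 2 and 1 with Yki-Dam, and 3 and 2 with Dam-Jra, with medians of −0.23, −0.04 and 0.18. Of 12 genes of mitochondrial dynamics and biogenesis, such as Marf, Opa1 and TFAM, 2 were higher and 7 lower, 2 and 4, and 4 and 2, with medians of −0.56, −0.29 and 0.08. Of 11 genes of the citric acid cycle, such as kdn (citrate synthase), 3 were higher and 4 lower, 3 and 1, and 5 and 2, with medians of −0.06, −0.12 and 0.19.

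Markers of the tissue and of other cells were measured in the same windows, against the same shares of all windows (26.1% and 30.3%, 22% and 20.3%, 32.6% and 36.3%). All 10 eye-antennal disc markers, ey, so and eya among them, were higher with Dam-Sd, Yki-Dam and Dam-Jra, with medians of 2.31, 1.76 and 1.88. Of 6 testis and germline markers, 2 were higher and 1 lower with Dam-Sd, 1 and 1 with Yki-Dam, and 1 and 3 with Dam-Jra. Fat body markers were lower in 4, 3 and 4 of 4. Of 5 neuron markers 1 was higher in each fusion and 1, 3 and 3 were lower, and of 4 muscle markers 1 was higher in each and 1, 0 and 1 lower. Of 4 haemocyte markers 1, 2 and 1 were higher and 1, 1 and 2 lower.

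The genes of the fused proteins were measured in the same way. Discs of each fusion also carried a transgene encoding its fused protein. Reads from the transgene and from the gene of that protein were not told apart, and the part of the transgene was not tested. The sd window rose by 1.67 with Dam-Sd, 1.15 with Yki-Dam and 1.91 with Dam-Jra. The Jra window rose by 3.70 with Dam-Jra, with 223, 251 and 234 CPM against at most 22.3 CPM in the Dam libraries, by 0.64 with Dam-Sd (−0.44 with library size alone) and by 0.45 with Yki-Dam (−0.36 with library size alone; 0.20 and 0.30 without Yki-Dam replicate 1 or 2, and not passing without any 1 Yki-Dam replicate or Dam Set 2 replicate 2 or 3). The yki window rose by 0.94 with Yki-Dam and 1.37 with Dam-Jra, and was −0.44 with Dam-Sd (adjusted p = 0.115; −0.43 with 0.0473 when replicate numbers were a block, −0.67 with 0.0216 without Dam-Sd replicate 3), with a span of −0.91 (0.00778).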

How the data were processed

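The deposited tables hold raw counts of reads at GATC ends in 18 libraries. Per the submitters' processing notes, the authors used Subread, featureCounts, edgeR and bedtools with dm6, and no versions are given there. The authors' deposited peak lists give each peak's log2 fold change with its p-value. Which Dam libraries entered them, and whether replicates were pooled, is not given in the sources used here.

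For the present tests the counts were added up over RefSeq gene spans and over spans with 1 kb each side, with Python 3.11.15 and pandas 2.3.3. They were tested with edgeR 4.0.16 in R 4.3.3 (quasi-likelihood, TMM, filterByExpr with a minimum count of 10, Benjamini-Hochberg over 13533 spans, 14090 windows or 394539 ends, adjusted p below 0.05, 12 residual degrees of freedom). All 18 libraries shared 1 estimate of the spread. DESeq2 1.42.0, other scalings and controls, unshared ends, a replicate block and leaving out each library were alternatives. On simulated data for Dam-Sd over Dam Set 1, 40% of windows changed by a log2 of 1 and 96% changed by 2 were recovered (25% and 82.8% of spans). Only 100 genes were changed by each size, far fewer than passed in the data. Titles place Dam-Jra in Set 1, and Dam Set 3 has no fusion of its own by title. In the order of the deposited counts the Dam-Jra libraries follow those of Dam Set 3, so which set is their own control was not settled. Against Dam Set 3 alone, 3277 of all 14090 windows were higher with Dam-Jra and 3808 lower. Against the mean of the 3 sets these were 4599 and 5116.

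Replicate numbers paired Dam-Sd with Dam Set 1 (r of same-numbered deviations 0.557, 0.373 and 0.371) and Yki-Dam with Dam Set 2 (0.616, 0.385 and 0.310), but not Dam-Jra with Dam Set 1 (−0.238, −0.027 and −0.082). The rule for members uses gene symbols alone, but this gene group and the lists were picked with earlier results of these data known. Genes named are ND-75, SdhA, UQCR-C1, COX4, ATPsynbeta, the 3 fused genes, and per comparison the 8 highest and 6 lowest members that passed with separated libraries in both span and window, plus the smallest p of each class.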

Additional observations from a re-analysis of the deposited data

Results flagged for a closer look

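Tests of the differences between fusions picked out 3 results. Dam-Sd and Yki-Dam differed at 2 of the 88 windows, Dam-Jra and Dam-Sd at 36, and Dam-Jra and Yki-Dam at 20, by edgeR's quasi-likelihood test of the difference of the fold changes. Over all windows 3.6%, 40.7% and 24.9% differed in either direction. These are values of the fit without replicate numbers, and with them as a block Dam-Sd and Yki-Dam differed at more members, as given above.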

How the results depend on the processing

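Over 122 named results and 1970 alternatives, 1762 kept their direction and side of the threshold, 115 lost the call, 41 gained it and 52 turned or crossed 0. In the simulation of Dam-Sd over Dam Set 1, 25% of 100 spans changed by a log2 of 1 were recovered. Only 100 spans were changed by each size there, whereas 3165 higher and 3811 lower of 13533 spans passed in the data. The adjusted p is stricter with few changed genes, so this share does not carry over to the data. How many differences of that size were missed was not tested. The causes of the changes below were not tested.

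With library size only, Dam-Sd gave 1 higher and 61 lower spans and 5 and 64 windows, Yki-Dam 1 and 50 and 5 and 53, and Dam-Jra 5 and 53 and 8 and 62, with 4 spans and 7 windows of subunit genes higher. Most genes were lower in that setting. Of all 13533 spans, 910 were higher and 9719 lower with Dam-Sd, 791 and 8650 with Yki-Dam, and 1362 and 9445 with Dam-Jra. Of all 14090 windows, these were 1230 and 10002, 1092 and 8991, and 1696 and 9611. Reversed Dam-Sd spans were ND-75 −1.15, SdhA −0.48, ND-B14.7 −0.35, ND-39 −0.036, ATPsynC −0.23, COX6B −0.34 and ND-MNLL −1.04, and windows SdhA −0.33, Jra −0.44, ND-39 −0.050, ATPsynC −0.026 and COX6B −0.41. Reversed Yki-Dam spans were ND-75 −0.82, SdhA −0.091, ND-MNLL −0.11, ATPsynE −0.017, ATPsynC −0.036 and ND-39 −0.20, and windows SdhA −0.038, Jra −0.36 and ND-39 −0.11. In Dam-Jra the ND-75 span was −0.15, the ATPsynE span −0.012 and the Sdhaf3 window −0.73.

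Over ends in no other gene's span, Dam-Sd gave 13 higher and 17 lower windows, Yki-Dam 7 higher spans and 4 lower windows, Dam-Jra 9 lower L paralog windows, and Dam-Jra minus Yki-Dam 13. Of the 88 spans, 13 have no such end. The 10 L paralogs whose span ends all lie inside another gene have none in their windows either and could not pass. The 9 are thus out of at most 14 L paralogs. Shares over all genes are not given for this setting. Reversed there were COX6B −0.15 and ATPsynE −0.25 in Dam-Sd, UQCR-C1 0.0099, ND-39 −0.011 and UQCR-6.4 0.17 in Yki-Dam, and UQCR-C1 0.38 in Dam-Jra. Against the mean of the 3 Dam sets, Yki-Dam gave 11 lower spans and 20 lower windows, and Dam-Sd spans were −0.048 at ND-75, −0.24 at ND-MNLL and 0.014 at Sdhaf3. Against Dam Set 3 alone, Dam-Jra gave 11 lower spans, 8 of L paralogs, and windows of 0.071 at UQCR-14 and −0.20 at Sdhaf3. Of all 13533 spans, 3216 were lower against that set. With the comparison's libraries only, Yki-Dam gave 3 lower spans. DESeq2's Wald test gave 0.12 for the ATPsynE span in Dam-Sd and 0.037 for the UQCR-C1 window in Dam-Jra, and its size factors 0.075 and 0.032.

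With replicate numbers as a block, Yki-Dam gave 12 lower spans and Dam-Sd minus Yki-Dam 18. For Dam-Jra, which shares only numbers with its controls, the block gave −0.41 (adjusted p = 0.0396 by edgeR) at the COX4 window and 0.51 (0.00867) at the UQCR-C1 span. In the authors' peaks, a list limited to the smaller p-values left 9, 5 and 11 members, a peak in the span alone 5 for Dam-Sd, and one within 1 kb of the start 4, 6 and 10.

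Leaving out 1 library gave 9 to 15 higher and 12 to 18 lower spans in Dam-Sd, 15 to 20 and 23 to 34 windows, 4 to 8 and 3 to 11 spans in Yki-Dam, 8 to 11 and 10 to 22 windows, 21 to 26 and 13 to 24 spans in Dam-Jra, and 21 to 27 and 20 to 26 windows. L paralogs lower in Dam-Jra numbered 9 to 15 spans and 13 to 16 windows, and subunit genes higher 19 to 23. Dam-Sd minus Yki-Dam gave 1 to 13, Dam-Jra minus Dam-Sd 28 to 39 and Dam-Jra minus Yki-Dam 12 to 22. Values that crossed 0 ranged from −0.097 to 0.050 at the UQCR-C1 window in Dam-Jra, and in the Dam-Sd spans from −0.043 to 0.28 at ND-75, −0.085 to 0.50 at ND-MNLL, −0.29 to 0.0091 at ATPsynE and −1.69 to 0.19 at Sdhaf3. With Yki-Dam they ranged from −0.29 to 0.46 at the ND-75 span and −0.52 to 0.19 at the Sdhaf3 window.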
